A study of Homo sapiens with 28 samples.

Results

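The RNAs encoded by the mitochondrial genome were followed through a nucleotide-recoding RNA sequencing experiment in HEK 293T cells, an established human embryonic kidney line of wild-type genotype. The members were all Ensembl gene identifiers on the mitochondrial contig of the deposited count table. There were 37 of them, for 13 mRNAs, 2 rRNAs and 22 tRNAs, and 36 had reads assigned to them alone, out of 34139 genes with a read in the alignment used. Cells received 100 µM 4-thiouridine (s4U), a uridine analogue built into RNA made during labelling, for 2 h, or none. A chemical treatment of the RNA then makes s4U read as C, so that a read from new RNA carries T-to-C mismatches. Of the chemistries, TL is sodium periodate (NaIO4) with trifluoroethylamine (TFEA) at pH 5.2, SLAM is iodoacetamide, and TUC is osmium tetroxide (OsO4) with ammonia. Each was applied to RNA of drop-out (DO) and of improved handling (IH). The study's aim with the second was to lose less labelled RNA and fewer mismatched reads. Each of the 6 combinations had 2 labelled libraries and 1 unlabelled library, which gave 18 libraries in 12 groups. The labels do not say whether duplicates came from separate cultures, so p-values measure only the spread between these libraries, which may be technical.

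Both strands of mitochondrial DNA are copied by the polymerase POLRMT into long transcripts that carry many genes each. These are cut at the tRNAs that lie between most mRNAs and rRNAs, and the pieces are matured, translated or degraded inside the organelle. The mRNAs encode subunits of the respiratory chain and of ATP synthase: MT-ND1 to MT-ND6 and MT-ND4L of complex I, MT-CYB of complex III, MT-CO1 to MT-CO3 of complex IV, and MT-ATP6 and MT-ATP8 of ATP synthase. MT-RNR1 and MT-RNR2 are the RNAs of the small and large subunits of the mitochondrial ribosome. Since heavy-strand genes share a precursor, their steady levels are known to depend much on the stability of each RNA.

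The count table gave identifiers only. Symbols were therefore derived from reads that the table assigned to 2 or more genes at once: 26 identifiers formed a chain in which all 25 neighbouring pairs shared reads, at least 22 per pair. The chain was matched to RefSeq's gene order (GRCh38.p14) and oriented by the 3 overlapping gene pairs, which held the most shared reads. A further 4 identifiers were named from 2 separate pairs by strand and read number, giving 30 names, and 7 tRNA identifiers stayed unnamed. The heavy-strand chain runs from the tRNA TRNF at position 577 over MT-RNR1 (648 to 1601), MT-RNR2 (1671 to 3229), MT-ND1 (3307 to 4262), MT-ND2 (4470 to 5511) and MT-CO1 (5904 to 7445) to MT-ND5 (12337 to 14148) on the RefSeq mitochondrial sequence. MT-ND6 (14149 to 14673) is the one mRNA on the opposite strand. Mitochondrial genes have no introns.

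Libraries held 1935777 to 9962345 reads with HISAT-3N, an aligner that tolerates converted bases. Of all reads on the mitochondrial contig, 82.0% lay in the exon of 1 member, 1441760 in all, and these are the values used below. The mRNAs took 58.7% of them, the rRNAs 41.2% and the tRNAs 0.084%. Thus all 15 mRNAs and rRNAs reached a mean of 100 reads per library and no tRNA did. Reads shared by overlapping genes (MT-ATP8 with MT-ATP6, MT-ND4L with MT-ND4, MT-ATP6 with MT-CO3) belong to none here, so these genes' levels are underestimated.

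Levels were compared between genes as CPM (exonic counts over effective library size, after TMM scaling) per kilobase of gene, first in the 3 unlabelled drop-out libraries. MT-RNR2 was highest at 18706 ± 3593 (SD, n = 3) CPM per kilobase. MT-RNR1 followed at 7783 ± 1782, and the highest mRNAs were MT-CO2 at 6686 ± 816, MT-ND4 at 6289 ± 956 and MT-CO1 at 5306 ± 576. MT-CO3 had 5253 ± 922, close to MT-CO1. The SDs of neighbours from MT-RNR1 down to MT-CO3 overlap. Within each of the 3 libraries the order from MT-RNR1 over MT-CO2 and MT-ND4 to MT-CO1 was the same, but it was not tested. MT-CO1 and MT-CO3 changed places between libraries, so their order is not resolved. MT-ND1, next to the rRNAs on the precursor, stood at 2673 ± 367 CPM per kilobase. MT-ND3, a short complex I gene, stood at 1395 ± 205. MT-ND6 was lowest at 152 ± 26.9. The heavy-strand mRNAs therefore spanned a wide range in exonic reads although they share a precursor, and the light-strand mRNA lay below them all. The size of its gap depends on the reads counted. With STAR, the second aligner used, MT-ND6 had 41 to 261 exonic reads per labelled library, against 202 to 1216 for MT-ND3. With reads marked as intronic included, the STAR totals over 18 libraries were 8435 for MT-ND6 (525 bases) and 9705 for MT-ND3 (346 bases).

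After 2 h of labelling, mitochondrial RNAs differed widely in the share of reads carrying 1 or more T-to-C mismatches, called the converted share below. MT-ND1, MT-ND2 and MT-ND3 of complex I led, the complex IV and ATP synthase mRNAs lay lower, and both rRNAs were lowest. With drop-out handling, MT-ND1 had a lowest, median and highest converted share of 49.6%, 62.2% and 68.3% over 6 labelled libraries. MT-ND2 had 45.1%, 57.4% and 65.2%, and MT-ND3 48.7%, 62.0% and 74.1%. MT-ND1 exceeded MT-ND2 in 6 of 6 of these libraries, while MT-ND3 exceeded MT-ND1 in 3 of 6.

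MT-ND5, the last gene of the heavy-strand chain, followed with a mean of 46.6% ± 8.02 (SD, n = 6) and lay below MT-ND2 in all 6. MT-CYB, the only mitochondrial subunit of complex III, had 40.2% ± 6.38 and MT-ND4L 39.4% ± 8.33. MT-ND4, one of the most abundant mRNAs, had 32.8% ± 5.34. MT-CO2, MT-CO1, MT-CO3 and MT-ATP6 formed a group with means from 30.9% for MT-CO2 down to 27.8% for MT-ATP6. Neighbours within that group differed by far less than the SD between libraries, although MT-CO1 was above MT-CO3 in 6 of 6 libraries. MT-ATP8 had 19.2% ± 5.09.

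The rRNAs stood apart from every mRNA in each drop-out library's order. MT-RNR1 ranged from 5.90% to 10.7% with a mean of 8.57% ± 1.73 (SD, n = 6), and MT-RNR2 from 4.57% to 7.24% with a mean of 5.99% ± 1.14. MT-RNR1 was above MT-RNR2 in 6 of 6. The background in unlabelled drop-out libraries was 3.36% ± 1.10 (SD, n = 3) for MT-RNR1 and 2.85% ± 0.740 for MT-RNR2, so a good part of the rRNA values is background. It was 3.38% ± 0.711 for MT-ND1, far below its labelled values. MT-ND6 scattered from 17.1% to 68.2% on 35 to 164 reads per library, and from 38.4% to 77.5% with improved handling, so its place in the order is not resolved.

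Reads of different genes hold different numbers of T positions, which affects the chance of a mismatch. In labelled drop-out libraries a read held a mean of 23.8 T positions in MT-RNR1, 25.3 in MT-ATP8, 36.1 in MT-ND1 and 47.0 in MT-ND3. Mismatches per 100 T positions were 2.77 for MT-ND1, 2.51 for MT-ND3 and 2.45 for MT-ND2. They were 1.18 for MT-CO1, 1.15 for MT-ATP6 and 1.03 for MT-ATP8, so MT-ATP8 lay closer to MT-ATP6 by this measure than by its converted share. MT-RNR1 had 0.52 and MT-RNR2 0.28. The order of the groups was thus the same per T position.

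**Figure D1:**
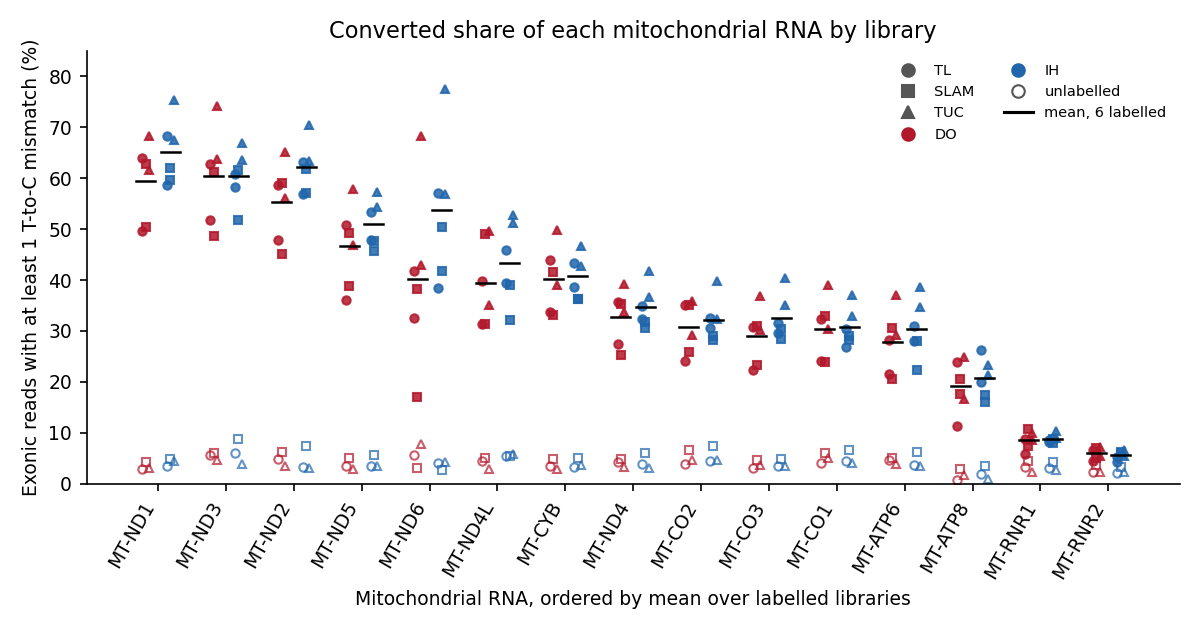
Converted share (vertical axis, percent of exonic reads that carry any T-to-C mismatch) of 13 mRNAs and 2 rRNAs in each library. Filled symbols are labelled and open symbols unlabelled libraries, the shape gives the chemistry, red is drop-out (DO) and blue improved handling (IH), and the bar is the mean of 6 labelled libraries. MT-ND1, MT-ND3 and MT-ND2 lie highest, MT-RNR1 and MT-RNR2 lowest, and red and blue overlap for every RNA.

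Improved handling left the same groups in place. Its means were 65.2% ± 6.34 (SD, n = 6) for MT-ND1, 62.1% ± 4.97 for MT-ND2 and 60.4% ± 5.17 for MT-ND3. MT-CO1 was at 30.7% ± 3.69 against 30.5% ± 5.72 with drop-out handling. MT-RNR2 was at 5.68% ± 0.859 against 5.99% ± 1.14. The labelled drop-out and improved libraries overlapped in converted share for 15 of 15 mRNAs and rRNAs. Of all 1992 genes with enough reads for the test below, 43.5% did not overlap.

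The change with handling was tested per gene with edgeR's quasi-likelihood model on converted and unconverted reads, over genes that had 50 or more exonic reads in every labelled library. Of 1992 genes tested, 82% were called at an adjusted p under 0.05, all with a higher converted share after improved handling. Of 14 mitochondrial RNAs tested (MT-ND6 had too few reads), 2 were called, a far smaller share. MT-ND2 rose, with a log2 odds ratio of 0.41 ± 0.17 (SE) and an adjusted p of 0.0253 in edgeR. MT-ND1 rose, with 0.36 ± 0.17 and an adjusted p of 0.0462. Both are subunits of the membrane arm of complex I, and neither call was stable: each was lost in at least 6 of 12 fits that left out 1 labelled library. Over those fits the log2 odds ratio ran from 0.27 to 0.54 for MT-ND2 and from 0.22 to 0.50 for MT-ND1. For MT-ND4, which was not called, it ran from 0.01 to 0.24. With intronic reads added, MT-ND1 was not called (0.35, adjusted p = 0.0668, edgeR) and MT-ND6, which then had enough reads, was higher (1.08, adjusted p = 0.000745).

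The other 12 were not called. MT-CO1 had a log2 odds ratio of 0.03 ± 0.15 (adjusted p = 0.856, edgeR), MT-ND4 0.13 ± 0.15 (0.418), MT-RNR1 0.07 ± 0.15 (0.673) and MT-RNR2 -0.07 ± 0.14 (0.609). The median over the 14 was 0.13, with a range from -0.07 to 0.41, and the median over all 1992 genes was 1.09. The members' median was 0.43 when 2 or more mismatches defined a converted read. It was 0.25, 0.22 and 0.23 without replicate 1 of TL, SLAM and TUC drop-out, and 0, 0.03 and 0.05 without replicate 2 of each. MT-ND2, the highest of the 14, had 218 of the 1992 genes below it, and MT-RNR2 had 28. Fitted per chemistry, 0 of 14 were called by edgeR in TL, SLAM or TUC, where 45.7%, 47.0% and 51.5% of all genes were called.

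**Figure D2:**
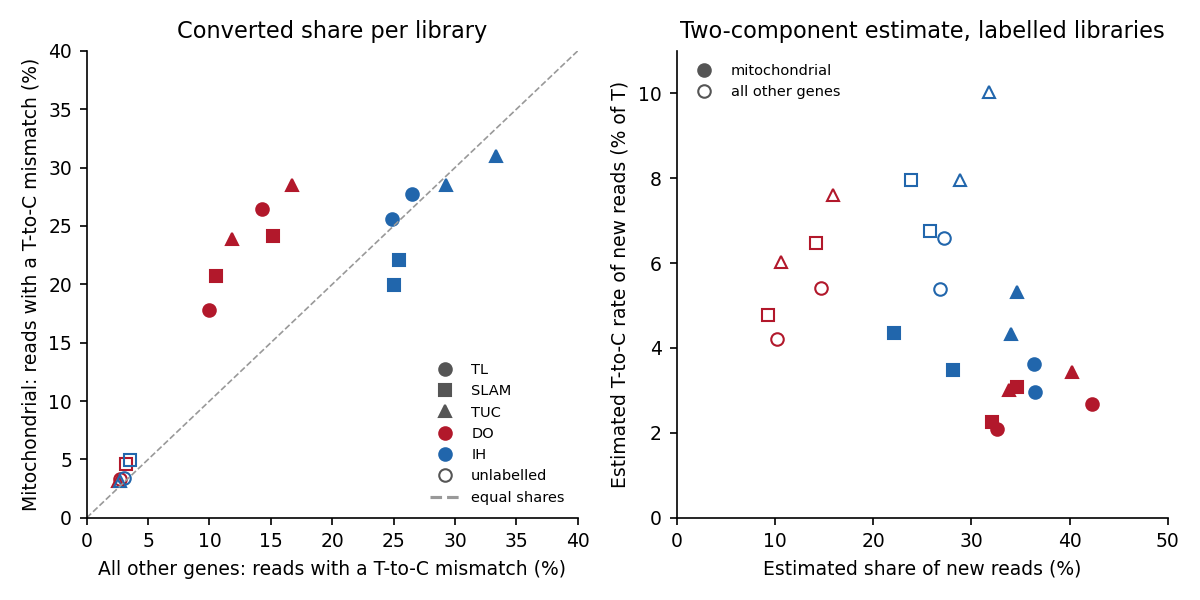
Left: converted share of exonic mitochondrial reads (vertical axis, percent) against that of all other genes (horizontal axis, percent) in 18 libraries, with the line of equal shares; open symbols are unlabelled. Right: estimated T-to-C rate of new reads (vertical axis, percent of T positions) against the estimated share of new reads (horizontal axis, percent) in 12 labelled libraries; filled symbols are mitochondrial reads and open symbols all other genes. Shapes and colours follow the legend on the left. With drop-out handling the mitochondrial share lies above the line in all 6 labelled libraries, and with improved handling the points lie near it.

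Mitochondrial reads as a whole were compared with exonic reads of all other genes in the same libraries. With drop-out handling their converted share was 17.8%, 24.0% and 28.5% (lowest, median and highest of 6 libraries), against 9.95%, 13.1% and 16.7% for other genes. With improved handling it was 19.9%, 26.7% and 31.0%, against 24.8%, 26.0% and 33.3%. The mitochondrial groups overlap between handlings and the other genes' groups do not. In unlabelled libraries mitochondrial reads had 3.69% ± 0.794 (SD, n = 3) with drop-out and 3.85% ± 0.985 with improved handling, and other genes 2.79% ± 0.335 and 3.08% ± 0.403.

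The mitochondrial converted share was 2.22 percentage points higher after improved handling, averaged over chemistries, which did not pass an exact permutation of handling within chemistry (two-sided p = 0.306, 216 arrangements). By chemistry the difference was 4.54 points in TL, 3.53 in TUC and -1.40 in SLAM. Leaving out 1 labelled library gave 0.789 to 3.65 points: 0.789 without TL drop-out 2, 1.44 without TUC drop-out 2 and 3.65 without TL drop-out 1. The rRNAs, the least converted members, also changed in their part of member reads. In TL it was 41.7% and 48.0% with drop-out and 37.4% and 35.4% with improved handling. In TUC it was 45.3% and 42.9%, then 40.7% and 38.1%. In SLAM it was 48.7% and 38.3%, then 55.0% and 46.9%. How far this moved the pooled share was not tested. Other genes rose by 14.3 points (p = 0.00926, the smallest p that these permutations can give). The log2 odds of conversion in mitochondrial over other reads were 0.83 to 1.22 with drop-out and -0.42 to 0.09 with improved handling, which do not overlap. This difference fell by 1.17 (exact permutation p = 0.00926, the smallest possible), by 0.96 in TL, by 1.33 in SLAM and by 1.21 in TUC. Within drop-out libraries the log2 odds exceeded 0 by 1.04 (exact sign-flip test over 6 libraries, p = 0.0312, the smallest possible), and within improved ones they were -0.13 (p = 0.219).

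These odds depended on the reads compared. With intronic reads added, the mean converted share of mitochondrial reads was 24.5% with drop-out and 26.9% with improved handling, and that of other genes was 19.3% and 49.6%. The log2 odds were then 0.45 with drop-out (0.29 to 0.64) and -1.44 with improved handling (-1.69 to -1.19), each with an exact sign-flip p of 0.0312 over 6 libraries. Mitochondrial reads were then less often converted than other reads in all 6 improved libraries. The fall between handlings was 1.88 in place of 1.17.

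Other genes also changed in the number of T positions per read, from 31.9 ± 0.852 to 35.7 ± 1.83 (SD, n = 6; exact permutation p = 0.00926), where mitochondrial reads had 34.3 ± 1.40 and 34.8 ± 2.10. The part of this in the converted shares was not tested. Per 100 T positions, mitochondrial mismatches went from 1.11 ± 0.269 to 1.42 ± 0.355 (exact permutation p = 0.0741), and those of other genes from 0.827 ± 0.306 to 2.16 ± 0.688 (p = 0.00926).

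A mixture of 2 binomial components, with the background rate of the matching unlabelled library, was used to estimate how many reads were new and how heavily new reads were converted. It fits 1 share and 1 rate to RNAs that differ widely in converted share, and whether 1 rate holds for all was not tested. For mitochondrial reads the estimated new share was 36.0% ± 4.26 with drop-out and 32.0% ± 5.72 with improved handling (SD, n = 6), a difference of -4.00 points (exact permutation p = 0.111). By chemistry it was -8.27 points in SLAM, -2.70 in TUC and -1.02 in TL. The changing part of rRNA reads enters these values too, and its effect was not tested. The mismatch rate of new mitochondrial reads rose from 2.76% ± 0.519 to 4.01% ± 0.834 of T positions (exact permutation p = 0.00926). For other genes the new share rose from 12.5% ± 2.77 to 27.4% ± 2.74 (exact permutation p = 0.00926), and the rate rose from 5.75% ± 1.22 to 7.45% ± 1.59 (p = 0.0185; 0.0741 with STAR alignments). By this estimate, new mitochondrial reads were less heavily converted than new reads of other genes in every labelled library. The gap was 2.99 percentage points with drop-out and 3.44 with improved handling (exact sign-flip p = 0.0312 each, the smallest possible).

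With these rates fixed, the estimated new share per gene with improved handling was 86.9% ± 3.99 (SD, n = 6) for MT-ND1, 78.7% ± 1.95 for MT-ND2 and 71.4% ± 4.62 for MT-ND3. It was 33.2% ± 3.06 for MT-CO1 and 4.55% ± 0.759 for MT-RNR2. The drop-out means were higher for 14 of the 15 RNAs, all but MT-ND6, while the mean converted share was higher with improved handling for 14 of the 15, all but MT-RNR2. With drop-out handling the means were 83.5% ± 6.48 for MT-ND2, 39.6% ± 6.07 for MT-CO1 and 6.15% ± 1.82 for MT-RNR2. MT-ND1 had a median of 96.4%, with 100.0% in 1 library, which is the ceiling of the estimate. One rate was assumed for all mitochondrial RNAs, so these are descriptions.

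The chemistries were compared within each handling. With improved handling the mitochondrial converted share was 29.7% ± 1.79 in TUC, 26.7% ± 1.46 in TL (SD, n = 2 each). The SLAM libraries were lower, with 19.9% as the lowest of all 6. The rRNA part of member reads was 55.0% and 46.9% in the SLAM libraries, 37.4% and 35.4% in TL and 40.7% and 38.1% in TUC. Its part in the converted and new shares compared here was not tested. The libraries of the 3 chemistries did not overlap, but the one-way exact permutation test has 90 arrangements and gave p = 0.0667, the smallest it allows, so it cannot pass 0.05. With drop-out handling the shares were 26.2% ± 3.29, 22.1% ± 6.07 and 22.4% ± 2.41 and overlapped (exact permutation p = 0.667). The mismatch rate of new mitochondrial reads with improved handling was 4.83% ± 0.694 in TUC, 3.92% ± 0.619 in SLAM and 3.29% ± 0.464 in TL (exact permutation p = 0.267). The new share in the same libraries was 36.4% ± 0.118 in TL, 34.3% ± 0.434 in TUC and 25.1% ± 4.27 in SLAM (exact permutation p = 0.0667), so TL stood above TUC here and below it in converted share.

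Mitochondrial RNAs took a smaller part of the sequenced reads after improved handling, in labelled and unlabelled cells alike. Their exonic reads were 2.34%, 2.62% and 3.12% of all reads in labelled drop-out libraries (lowest, median and highest) and 1.59%, 2.05% and 2.60% in improved ones, a difference of -0.646 percentage points (exact permutation p = 0.00926, the smallest possible). With STAR the difference was -1.29 points. In unlabelled libraries they were 2.71%, 3.26% and 3.40% against 1.45%, 1.60% and 2.02%. That difference was -1.44 points, where 8 arrangements allow no p below 0.25. Of reads off the contigs that carry ribosomal DNA, the labelled shares were 4.22% ± 0.694 and 2.26% ± 0.409 (SD, n = 6). In such shares fewer mitochondrial RNA molecules and more of other RNA cannot be told apart.

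Read numbers per gene were tested with edgeR over 12449 genes after TMM scaling. Each unlabelled group held 1 library, so contrasts with unlabelled RNA took their spread from the labelled duplicates alone. Between handlings of labelled RNA, 80.6% of all genes were called, 46.7% higher and 33.9% lower. Of the 15 mRNAs and rRNAs, 14 fell and none rose. Their median log2 fold change was -0.97, against 0.44 over all genes. In unlabelled RNA 72.1% of genes were called, 41.4% higher and 30.7% lower, and all 15 fell, with a median of -1.33 against 0.43. With DESeq2 14 of the 15 fell, all but MT-ND6.

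MT-RNR2, the most abundant member, had 22527, 24301 and 36520 CPM (lowest, median, highest of 6) in labelled drop-out libraries and 10560, 11358 and 18250 CPM in improved ones. The groups do not overlap, and it fell with a log2 fold change of -0.997 ± 0.0899 (SE; adjusted p = 1.24e-09, edgeR). MT-RNR1 fell by 1.13 ± 0.09 (9.64e-11). MT-ND4 went from 6024, 7691 and 9353 CPM to 3473, 4158 and 4895, and fell by 0.88 ± 0.10 (1.99e-08). MT-CO1 went from 6241, 7692 and 8722 CPM to 4235, 5082 and 5629, and fell by 0.61 ± 0.09 (1.36e-06). MT-ND3, at 387 to 493 CPM before and 134 to 204 after, fell by 1.35 ± 0.13 (1.82e-09). MT-CO3 and MT-CO2 fell by 1.31 ± 0.10 and 1.29 ± 0.10, within the SE of MT-ND3.

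MT-ND6 was the one of the 15 that was not called in labelled RNA. It had 44.2, 53.8 and 128 CPM with drop-out and 51.7, 58.7 and 87.8 with improved handling, which overlap, with a log2 fold change of -0.02 ± 0.21 (adjusted p = 0.933, edgeR). With intronic reads added it fell by 0.59 (adjusted p = 0.00637, edgeR). In unlabelled RNA it fell by 0.70 ± 0.29 (0.0340), a call that DESeq2 did not make (-0.66, adjusted p = 0.0872). Whether its change differs between labelled and unlabelled RNA was tested as an interaction and was not called, with a log2 difference of 0.68 (adjusted p = 0.690). In CPM, labelled drop-out and improved libraries did not overlap for 13 of the 15, the exceptions being MT-ND6 and MT-ATP8. Of all 12449 genes 60% did not overlap, and in unlabelled RNA 76.6% did not, against 15 of the 15. With intronic reads added the fitted falls were larger, -1.68 for MT-RNR2, -1.57 for MT-ND4 and -1.29 for MT-CO1. All these fold changes are relative to the TMM scaling over the genes fitted, which then included other genes' intronic reads. As a share of all reads, labelled mitochondrial reads had means of 2.68% with drop-out and 2.04% with improved handling. With intronic reads added the means were 2.82% and 2.14%. The part of the scaling in the larger falls was not tested.

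**Figure D3:**
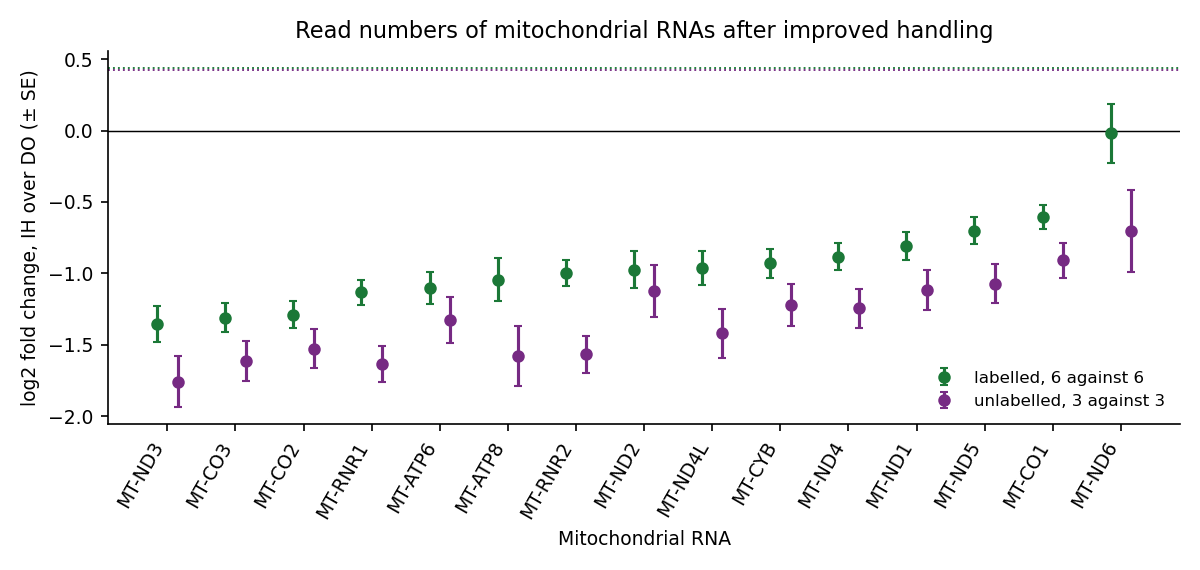
Log2 fold change of exonic reads, improved over drop-out handling (vertical axis, edgeR estimate ± SE), for 13 mRNAs and 2 rRNAs in labelled (green, 6 libraries against 6) and unlabelled RNA (purple, 3 against 3). Dotted lines give the medians of all genes tested, 0.44 and 0.43. All values lie below 0, and MT-ND6 in labelled RNA lies at -0.02.

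The tRNAs were hardly captured by these libraries. Exonic tRNA reads were 31 to 54 per library in the TL and TUC drop-out libraries, 179 to 477 in SLAM drop-out libraries and 5 to 14 in the 9 improved ones. As a share of member reads, the highest improved library had 0.0182% and the lowest drop-out library 0.0412%. Most belonged to few genes: TRNV, between the rRNA genes, had 537 reads over the 9 drop-out libraries and 8 over the 9 improved ones. TRNH had 204 and 5, TRNL1 89 and 8, and TRNS2 209 and 47. The drop-out reads of TRNV and TRNH came mostly from SLAM: TRNH stood at 45.1 to 52.1 CPM in the 3 SLAM drop-out libraries. In TL, TRNH stood at 1.07 to 3.87 CPM with drop-out and 0 to 1.39 with improved handling, which overlap. Of the 22, 15 had any exonic read. Only 5 passed edgeR's filter on low counts, through the drop-out libraries where they were high, so their calls are not counted above.

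Labelling itself was then examined at fixed handling. With drop-out handling the 15 had log2 fold changes, labelled over unlabelled, from -0.30 to -0.05, and with improved handling from -0.05 to 0.43. Whether the drop-out sign of the 15 holds under other fits is not resolved. Those fits were summarised over the 20 members tested, which add 5 tRNAs with values from -0.64 to 1.74 in the main fit. The median of the 20 was -0.11, -0.04 with DESeq2, -0.02 without TUC drop-out 2 and 0.03 without TL drop-out 2. In edgeR, 0 of the 15 were called in either (0.217% of all genes were called with drop-out, 0.12% higher and 0.0964% lower, and 0.225% with improved handling, 0.177% higher and 0.0482% lower). The unadjusted p was under 0.05 for 1 and 4 of the 15, and DESeq2 also called 0. The largest values among the 15 with improved handling were those of MT-RNR2 at 0.43 (adjusted p = 0.186), MT-ATP8 at 0.43 (0.614) and MT-RNR1 at 0.42 (0.163). MT-RNR1 and MT-RNR2 were called higher in fits without either SLAM drop-out labelled replicate, and MT-RNR1 without either TL drop-out one. Drop-out libraries enter this contrast only through the scaling, the filter on low counts and the spread shared over groups. Leaving out labelled libraries in turn, the log2 fold change ran from 0.40 to 0.48 for MT-RNR1 and from 0.41 to 0.48 for MT-RNR2. The interaction of label and handling was positive for all 15, from 0.15 to 0.68, and called for 0 of them, where 0% of all genes were called. The unadjusted p was under 0.05 for 6, and DESeq2 called 0.

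The choice of aligner changed both the number and the converted share of mitochondrial reads. STAR, a general spliced aligner, assigned 1.48 ± 0.0249 times as many exonic mitochondrial reads as HISAT-3N (SD, n = 12 labelled libraries), with a range of 1.44 to 1.52. For other genes the ratio was 1.24 ± 0.0273. The converted share of mitochondrial reads was 3.93 percentage points lower with STAR and lower in each of the 12 libraries (exact sign-flip test, p = 0.000488, the smallest that 4096 arrangements can give).

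The gap was uneven over genes. MT-ATP6 had 1.88 ± 0.0729 times as many reads with STAR, MT-RNR1 1.81 ± 0.0543, MT-CO1 1.75 ± 0.0442 and MT-CO2 1.67 ± 0.0487. MT-ND3, MT-ND5 and MT-ND1 had 1.24 to 1.26. Reads without a mismatch were affected more: for MT-CO1 their ratio was 1.91 ± 0.0706, against 1.39 ± 0.0266 for converted reads. For MT-ND3 it was 1.54 ± 0.165 against 1.05 ± 0.0349. The converted share was lower with STAR in 12 of 12 labelled libraries for 13 of the 15 RNAs, in 9 of 12 for MT-ATP8 and in 5 of 12 for MT-ND6. The loss was largest for MT-ND3, with a difference of -9.09 ± 2.28 percentage points, but MT-ND4L lay within that SD at -8.59 ± 1.74. Which alignment places these reads correctly was not tested.

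**Figure D4:**
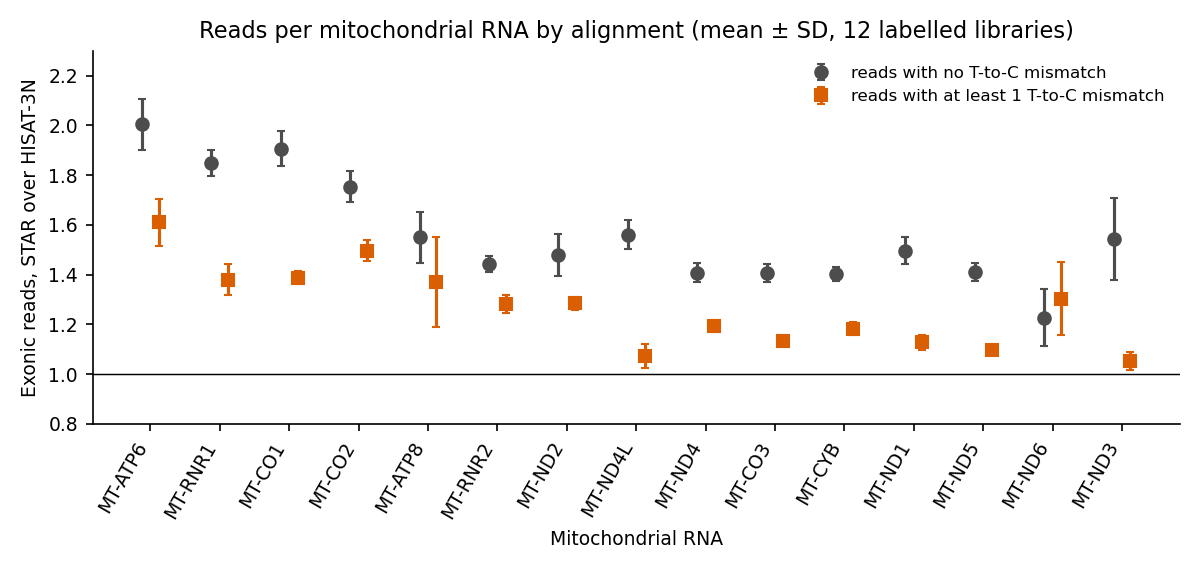
Ratio of exonic reads, STAR over HISAT-3N (vertical axis, mean ± SD of 12 labelled libraries), for reads without (grey circles) and with (orange squares) a T-to-C mismatch, in 15 mitochondrial RNAs. Grey lies above orange except for MT-ND6, and the ratios are highest for MT-ATP6, at 2.01 and 1.61.

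The authors' deposited table gives rate constants of RNA degradation, in which a higher value means faster loss of the RNA. It names 13 of the mitochondrial RNAs in each chemistry, all of the 15 but MT-ND5 and MT-ND6. In that table the order was like that of the converted shares, from which such constants are estimated. For TL with improved handling the authors' deposited table gives 0.523 for MT-ND1, 0.462 for MT-ND2, 0.367 for MT-ND3, 0.116 for MT-CO1, 0.0388 for MT-RNR1 and 0.0160 for MT-RNR2. The time unit is not stated. Spearman's rho between these constants and the converted shares over 13 RNAs was 0.91 to 0.99 in the 6 combinations, a description, since both come from the same libraries.

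Handling hardly moved these constants for mitochondrial RNAs. The authors' deposited table calls 53.3% of transcripts changed at an adjusted p under 0.05 in TL, 50.3% in SLAM and 48.6% in TUC. It calls 0.679%, 1.44% and 0.442% lower. Of the 13 mitochondrial RNAs it calls 0 in TL, 2 in SLAM and 0 in TUC. Both of the SLAM calls were lower: in the authors' deposited table MT-CO2 went from 0.134 to 0.102 (adjusted p = 0.0462) and MT-CYB from 0.190 to 0.145 (0.0449). The median log2 change of the 13 in the authors' deposited table was 0.05 in TL, -0.18 in SLAM and 0.02 in TUC, against 1.18, 1.14 and 1.19 over all transcripts.

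Nuclear genes whose products make or process mitochondrial RNA were looked up in the same table from a list of 36 symbols. It holds 4 of them for TL, 2 for SLAM and 7 for TUC. Of these, by the authors' deposited table, 2 rose in TL, 1 in SLAM and 4 in TUC, and none fell; over all transcripts 52.6%, 48.9% and 48.1% were called higher. ELAC2, the enzyme that cuts tRNA 3′ ends, went from 0.0393 to 0.125 in TL (adjusted p = 0.000454, the authors' deposited table). POLRMT went from 0.0426 to 0.0826 in TL (0.0537) and from 0.0368 to 0.0893 in TUC (0.0219). The authors' deposited table also lists MTCO1P12, a nuclear copy of MT-CO1: it fell in SLAM from 0.167 to 0.0400 (0.000242), where MT-CO1 went from 0.0927 to 0.0939 (0.917). In the authors' deposited table MTCO1P12 was not called in TL, from 0.168 to 0.0933 (0.0788), or in TUC, from 0.126 to 0.0690 (0.183).

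**Figure D5:**
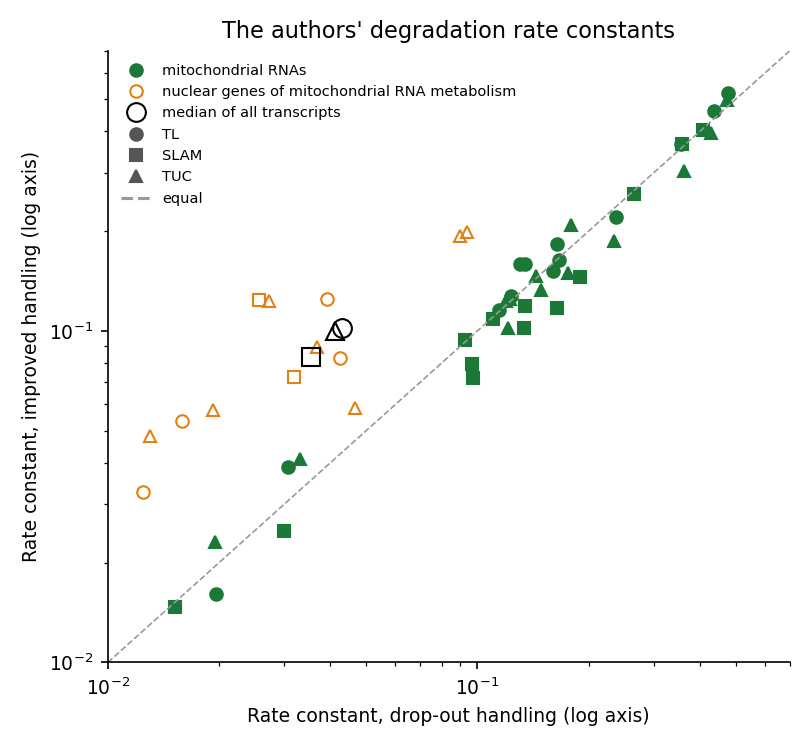
The authors' degradation rate constants with improved (vertical, log axis) against drop-out handling (horizontal, log axis; time unit not stated). Green points are 13 mitochondrial RNAs per chemistry, open orange points nuclear genes of mitochondrial RNA metabolism, large black symbols the median of all transcripts, and shapes the chemistry. The mitochondrial RNAs lie along the line of equal constants, and the orange and black symbols lie above it.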

How the data were processed

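Per the labels' protocols, total RNA was extracted with Trizol, DNase-treated, bead-cleaned, converted and made into stranded total-RNA libraries; what differed between handlings is not described there. The submitters' processing notes name cutadapt, HISAT2, STAR, HISAT, Picard, HTSeq, DESeq2 and build GRCh38; versions and roles are not given in the sources used here. The authors deposited a table of read counts by library, aligner, settings code, gene, intronic flag, T-to-C mismatches and T positions. The authors' deposited second table holds rate constants, treated here as scores, their log2 change and its adjusted p-value. Its log2 direction is improved over drop-out, with the same sign as the ratio of the constants for all 13 mitochondrial RNAs per chemistry. Meanings of the settings codes are not stated.

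HISAT-3N with settings D and exonic reads were used, and STAR with settings D beside it. Of 28 samples, 10 with other chemistries were not analysed here. Counts were fitted with edgeR 4.0.16 (filterByExpr, TMM, quasi-likelihood, 12 groups in 1 fit; contrasts averaged over chemistries) and DESeq2 1.42.0, with Benjamini-Hochberg adjustment over all genes tested. Standard errors were derived from each estimate and its F statistic. Library-level values were tested by exact permutation, two-sided. The fits and the mixture were tested on simulated data. Members averaging 100 or more exonic reads per library were named, and 4 tRNAs outside that rule after their values were seen; full statistics go to the 2 most abundant of each class and the extreme changes. The members, lists and tests were chosen with earlier results of these data known. Replicate numbers of the 2 handlings did not pair the libraries in read counts (correlations of deviations 0 to 0.0058). In the new-read mismatch rate, replicate 1 was above replicate 2 in every combination of chemistry and handling. This held for mitochondrial reads, as in TL drop-out (2.68% against 2.09%) and TUC improved (5.32% against 4.34%), and for other genes. The main tests of conversion were not paired by that number. No labelled duplicates were alike within counting noise: their chi-square per degree of freedom was 2.13 to 8.68.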

Additional observations from a re-analysis of the deposited data

Results flagged for a closer look

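Reads on the mitochondrial contig that belong to no single member entered none of the comparisons, yet they were converted above the unlabelled level. Reads that name no gene made up 7.33% of mitochondrial-contig reads. Their converted share was 37.9% ± 6.47 (SD, n = 6) in labelled drop-out libraries and 51.3% ± 4.82 in improved ones, against 4.19% ± 0.645 and 4.89% ± 0.847 (n = 3) without label. These labelled groups overlap slightly, from 29.8% to 46.9% and from 45.5% to 59.0%. Reads assigned to several members had 34.9% ± 5.38 and 38.9% ± 5.57, against 4.91% ± 1.02 and 4.78% ± 1.35 without label. Both classes lay above the members' pooled means of 23.6% and 25.8%.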

How the results depend on the processing

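In labelled libraries the falls of the mitochondrial read share and of its log2 odds of conversion against other genes, and both aligner differences, kept their direction and their side of the threshold under every alternative run. Of the 15 mRNAs and rRNAs, 14 were called lower between handlings of labelled RNA, or 15 with intronic reads added. In unlabelled RNA 15 were, or 14 with DESeq2, where MT-ND6 was lost. Sizes moved by over 1.5 times: the read share with STAR or other denominators (-1.96 to -1.29 points), the log2 odds with intronic reads (-1.88), and the aligner difference at 2 or more mismatches (-1.91 points). The mitochondrial converted share missed the threshold in all. The count of members with a changed converted share did not hold: it was 2 in edgeR, 1 with DESeq2, 1 with at least 200 reads, 1 with at least 2 mismatches, 1 with STAR and 4 with the replicate block. It ran from 0 to 4 when labelled libraries were left out in turn: 0 without TL drop-out 2, TL improved 1, SLAM drop-out 2, SLAM improved 1, TUC drop-out 2 or TUC improved 1, 1 without SLAM improved 2, 3 without TUC drop-out 1, and 4 without TL drop-out 1 or SLAM drop-out 1. The cause was not tested.

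Members called between labelled and unlabelled RNA with improved handling went from 0 (of 28 genes called) to 2 (of 50) with no filter on low counts and to 1 (of 42) with the replicate block. That number also varied over left-out libraries, where only fits without a drop-out library called any member. The interaction count became 1 (of 10 genes) with no filter and ranged from 0 to 2, being 2 (of 17) without SLAM drop-out 1 and 1 (of 5) without SLAM drop-out 2. The change of mismatches per 100 T positions ranged from 0.23 to 0.38 and passed without TL drop-out 1 (0.38) or SLAM drop-out 1 (0.37). That of the new share ranged from -5.62 to -2.38 points and passed without TL drop-out 2 (-5.62). Values near 0 changed sign: MT-ND6 counts (-0.36 to 0.17), and the converted shares of MT-CO1 (-0.0773 to 0.134), MT-RNR1 (-0.0368 to 0.175) and MT-RNR2 (-0.165 to 0.0179 over left-out libraries, 0.31 with at least 2 mismatches). In unlabelled libraries the log2 odds difference was -0.10 with exonic reads and 0.41 with intronic reads added. For other genes, the rise of the new-read rate was 1.26 points with STAR and no longer passed. The replicate block changed no other call. The new-read rate and log2 odds of mitochondrial minus other reads within a handling kept their calls with STAR. With intronic reads the log2 odds within improved libraries passed (-1.44). Both alternatives were chosen after seeing the data. MT-ND6 had under 50 reads in some labelled libraries, and no tRNA averaged 100.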

Other observations

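Mitochondrial-contig reads of 1 member that the table marks as intronic, 4.48% of the contig's reads, had a converted share of 42.3% ± 6.01 (SD, n = 6) in labelled drop-out libraries and 47.1% ± 5.82 in improved ones. Without label they had 5.37% ± 2.07 and 5.07% ± 0.934 (n = 3). Mitochondrial genes carry no introns, and what the mark means for them is not stated in the sources used here.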
